A study of Homo sapiens with 8 samples.

Results

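Of 47470 CTCF peaks called in control HT1080 cells, 1036 had their centre no more than 1 kb from the start of a long noncoding RNA (lncRNA) gene and lay more than 5 kb from the start of every protein-coding gene. They stood at 992 of the 18702 lncRNA genes of the GENCODE annotation, with 1 peak at 949 of them, 2 at 42 and 3 at 1. The choice used position alone, and every one of the 1036 peaks is included in the counts below. HT1080 is a human fibrosarcoma line from connective tissue labelled as positive for the ras oncogene, so all values describe 1 cancer cell line. The compared cells were a control and cells exposed to 3 µM CBL0137 for 6 h, each with 2 anti-CTCF ChIP libraries and 2 input libraries, 8 in all. CBL0137 is a curaxin, a small molecule that binds DNA without breaking it, and the question asked of the ChIP-seq was where CTCF is still found on DNA after the drug.

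CTCF is a zinc-finger protein that binds a well-defined DNA motif and, together with cohesin, holds the bases of chromatin loops. A motif has a direction, and loops usually form between motifs that point towards each other. lncRNA genes give rise to long transcripts that are not translated; many start at CpG-rich promoters as coding genes do, and some, such as H19 and FIRRE, are known for CTCF sites beside or within them.

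Each deposited list was called from the pooled replicates of a condition and assigns to every peak a fold enrichment, which sets ChIP against input. A control peak was counted as kept if a peak of the CBL0137 list overlapped it by at least 1 bp, and as lost if none did, so a lost peak is one that was not called again. With 1 list per condition there was no replicate error and no test between conditions, and the Wilson 95% intervals given below cover counting error over peaks only. The lists hold no read numbers, and the depth behind a single peak is therefore unknown.

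The best match to the 12-letter core of the CTCF consensus was read from the hg19 genome within 400 bp around the centre of each peak, on both strands. The sequences below, each with 20 bases on either side, show how wide a range of matches these promoters hold. The 12 bases of the match are in capitals, and each sequence runs 5′ to 3′ on the strand of the match. The first set comes from kept peaks, some of the highest fold enrichment among the 1036 peaks and some at genes described below.
upstream of the lncRNA start at chr22:36461951-36462550, match region chr22:36462329-36462380 (+ strand): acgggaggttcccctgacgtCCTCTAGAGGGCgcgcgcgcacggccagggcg
LINC03051, match region chr3:117716469-117716520 (− strand): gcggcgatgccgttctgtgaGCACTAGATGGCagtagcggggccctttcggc
MIR3663HG, match region chr10:118927810-118927861 (− strand): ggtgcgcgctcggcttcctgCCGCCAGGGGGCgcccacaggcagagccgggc
SNHG17, match region chr20:37064060-37064111 (− strand): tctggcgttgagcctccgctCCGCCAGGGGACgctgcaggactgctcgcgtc
SNHG7, match region chr9:139622693-139622744 (− strand): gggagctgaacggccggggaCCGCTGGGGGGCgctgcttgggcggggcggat
MIR4300HG, match region chr11:82429423-82429474 (+ strand): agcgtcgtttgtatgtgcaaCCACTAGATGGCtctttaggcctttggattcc
ARHGAP31-AS1, match region chr3:119041718-119041769 (− strand): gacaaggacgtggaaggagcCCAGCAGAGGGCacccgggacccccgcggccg
Those of MIR4300HG and ARHGAP31-AS1 had no mismatch to the consensus, those of the chr22 peak, LINC03051 and MIR3663HG had 1, and those of SNHG17 and SNHG7 had 2. The second set comes from lost peaks and shows that a full match did not go with a kept peak in every case.
lncRNA intron at chr17:11784101-11784350, match region chr17:11784217-11784268 (− strand): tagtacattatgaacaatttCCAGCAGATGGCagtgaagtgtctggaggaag
MIR193BHG, match region chr16:14394839-14394890 (+ strand): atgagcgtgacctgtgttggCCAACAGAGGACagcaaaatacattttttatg
FIRRE, match region chrX:130964954-130965005 (− strand): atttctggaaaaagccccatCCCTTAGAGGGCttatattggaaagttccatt
The match of the chr17 peak had 0 mismatches, and those of MIR193BHG and FIRRE had 2 each. The place of a match relative to a start is shown by 2 promoters of 300 bases centred on the annotated start and written on the strand of the gene, in which the capitals again mark the match.
LINC03051 promoter, chr3:117716290-117716589 (− strand): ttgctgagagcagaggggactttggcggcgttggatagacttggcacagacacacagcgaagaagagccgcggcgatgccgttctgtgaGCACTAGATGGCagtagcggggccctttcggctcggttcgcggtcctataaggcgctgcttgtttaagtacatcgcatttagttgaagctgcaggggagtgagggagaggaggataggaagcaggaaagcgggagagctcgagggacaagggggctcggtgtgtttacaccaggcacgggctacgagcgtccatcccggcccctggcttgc
ARHGAP31-AS1 promoter, chr3:119041458-119041757 (− strand): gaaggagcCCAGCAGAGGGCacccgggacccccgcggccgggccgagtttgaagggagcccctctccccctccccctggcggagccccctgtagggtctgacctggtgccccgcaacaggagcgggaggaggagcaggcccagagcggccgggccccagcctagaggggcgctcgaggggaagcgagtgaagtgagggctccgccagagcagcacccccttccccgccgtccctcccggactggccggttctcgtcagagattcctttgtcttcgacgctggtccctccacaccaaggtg

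CTCF peaks gathered at the lncRNA starts themselves. Within 100 bp of a start 114 peaks were centred per 100 bp, against 66.7 between 100 and 250 bp, 36.0 between 750 and 1000 bp, and 28.3 and 26.4 at 1 to 2 kb and 2 to 5 kb, where the flanking peaks were also kept more than 5 kb from coding genes. The gathering was larger on the upstream side, with 239 peaks in the 200 bp before the start and 133 in the 200 bp after it. The downstream side was also above the flanks, with 78 peaks in its first 100 bp and 55 in the next 100 bp. In all, 581 peaks (56.1%) were centred upstream of the start, 241 in an exon, 193 in an intron and 21 beyond the end of a short gene. The start itself lay under the peak for 324 of them (31.3%).

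**Figure D1:**
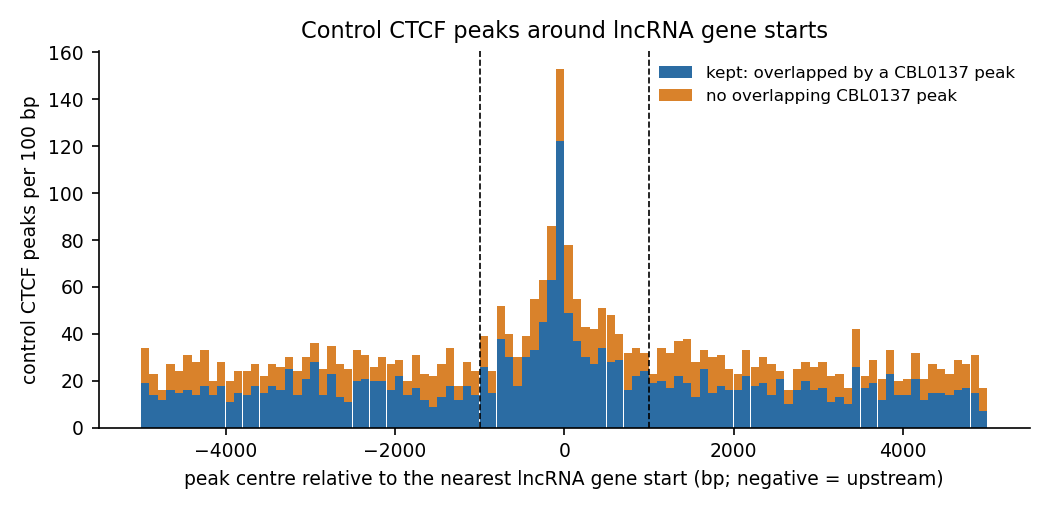
Number of control CTCF peaks in 100-bp steps of distance from the centre of the peak to the nearest lncRNA gene start (x axis, bp, negative upstream), for peaks more than 5 kb from coding starts, stacked as kept (blue) and lost (orange); dashed lines mark 1 kb. The highest bar, 153 peaks of which 122 were kept, is the 100 bp just upstream of the start.

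After CBL0137, 320 of the 1036 peaks were lost and 716 kept. This is a lost share of 30.9% (28.1 to 33.8), where 42.9% of all control peaks were lost. At promoters of protein-coding genes (3208 peaks within 1 kb of a start) the share was 28.0% (26.5 to 29.6), and at the 36992 peaks more than 5 kb from any lncRNA or coding start it was 45.5% (45.0 to 46.0). The lncRNA promoter peaks thus stood nearer to the coding promoters than to the distal peaks. By the stricter rule that the overlap exceed 50% of the larger peak, 644 peaks remained, or 62.2% (59.2 to 65.1), and 37.8% did not, where 50.7% of all control peaks did not remain. For 72 kept peaks the overlap was no more than 50% of the larger peak.

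The lncRNA promoter peaks were also stronger in control cells, with a median fold enrichment of 32.2 (quartiles 22.7 and 41.8, range 3.82 to 90.2). The median was 28.7 over all control peaks, 30.8 at coding promoters and 28.3 at distal peaks. Lost lncRNA promoter peaks had a median of 21.1 and kept ones 37.1 in the control list, and their median widths were 200 and 350 bp. When all control peaks were divided into 10 equal groups by fold enrichment, 86.6% (77.6 to 92.3) of the lncRNA promoter peaks in the weakest group and 4.79% (2.34 to 9.57) of those in the strongest were lost. In each group this share was below that of all control peaks, and the intervals excluded that share in groups 3, 5 and 6. If all control peaks had the same distribution over these groups, 37.3% of them would be lost, which places the lncRNA promoter peaks 6.46 percentage points lower at equal fold enrichment. This was not particular to lncRNA promoters. Coding promoter peaks lay further below their share at equal fold, with 28.0% lost against 40.3%, or 12.3 points. Distal peaks lay above theirs, with 45.5% lost against 43.6%.

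**Figure D2:**
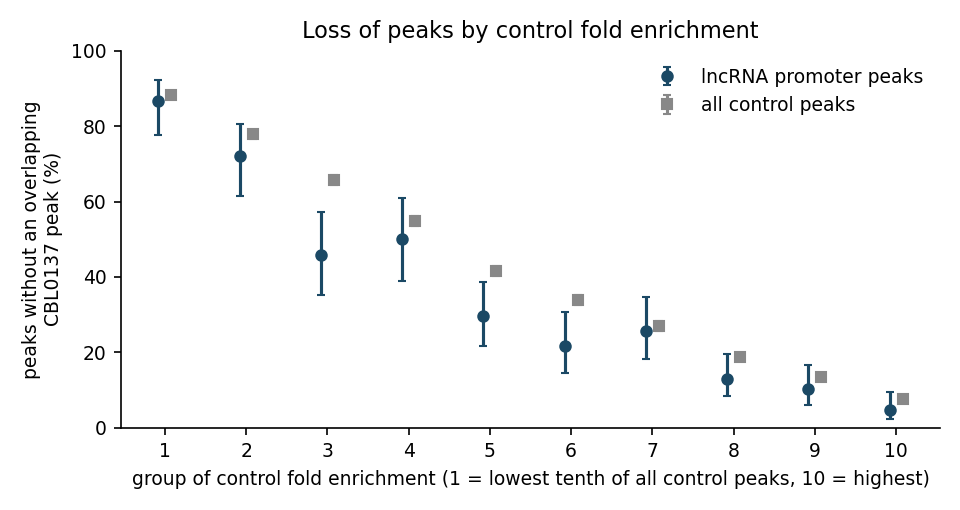
Percentage of peaks without an overlapping CBL0137 peak (y axis) in 10 equal groups of control fold enrichment formed over all control peaks (x axis), for the 1036 lncRNA promoter peaks (circles) and all control peaks (squares), with Wilson 95% intervals. Both are highest in group 1 and lowest in group 10, where 4.79% of the lncRNA promoter peaks and 7.6% of all were lost.

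GC content moved with these shares. In the 500 bp around the centre the lncRNA promoter peaks had a median GC content of 51.8%, against 45.6% over all control peaks, 62.4% at coding promoters and 44.2% at distal peaks. CpG-rich windows, with at least 50% GC and an observed to expected CpG ratio of at least 0.6, made up 21.1% of the lncRNA promoter peaks, 65.1% of those at coding promoters and 2.6% of the distal ones. Of the 251 lncRNA promoter peaks with at least 60% GC, 36 were lost (14.3%, 10.5 to 19.2), and of the 131 with less than 40%, 59 were lost (45.0%, 36.8 to 53.6). All control peaks with these GC contents were lost in 16.9% and 56.1% of cases. At equal GC content the share expected from all control peaks was 35.6%, and at equal fold enrichment and GC content together it was 33.4%, which is inside the interval of the 30.9% measured. With both properties held equal, the lncRNA promoter peaks were thus 2.54 points below all control peaks, and coding promoter peaks were 0.773 points below. The part of each property in the result was not tested.

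A match to the core consensus with no or 1 mismatch stood in 538 of the 1036 windows, or 51.9% (48.9 to 55.0), where 49.0% of all control peaks held it. It was found in 34.1% of peaks at coding promoters, in 50.4% of distal peaks and in 2.85% (2.21 to 3.66) of windows placed 10 kb to either side of the lncRNA promoter peaks. In this measure the lncRNA promoter peaks were nearer to the distal peaks. A match lay a median of 16 bp from the centre of the peak and within 50 bp of it in 87.0% of cases. The lost share was higher with each further mismatch. It was 7.69% (4.45 to 13.0) of 156 peaks with a full match and 23.8% (19.8 to 28.3) of 382 with 1 mismatch. With 2 mismatches it was 38.8% (33.8 to 43.9) of 356 and with 3 it was 53.7% (45.3 to 62.0) of 134. Of 8 peaks with 4 or more mismatches, 7 were lost. Over all control peaks the shares with 0 to 3 mismatches were 12.7%, 33.5%, 52.0% and 68.5%, each above the interval of the lncRNA promoter peaks except the first.

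Fold enrichment differed between these sets too. Peaks with a full match had a median fold of 36.9, and all control peaks of their fold groups were lost in 28.6% of cases, against the 7.69% measured. For peaks with 3 mismatches the share at equal fold was 48.3%, below the 53.7% measured. Consensus and GC content could be seen side by side. With at most 1 mismatch and at least 50% GC, 39 of 300 peaks were lost (13.0%, 9.66 to 17.3), and with 2 or more mismatches and less than 50% GC, 119 of 214 were lost (55.6%, 48.9 to 62.1). The mixed sets lay between these, at 26.9% of 238 peaks with the consensus and the lower GC content and at 34.5% of 284 without the consensus and with the higher one. All control peaks were in the same order, with 15.0% and 67.2% lost in the first pair of sets and 34.3% and 38.4% in the mixed ones, so the order is shared with the genome as a whole.

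**Figure D3:**
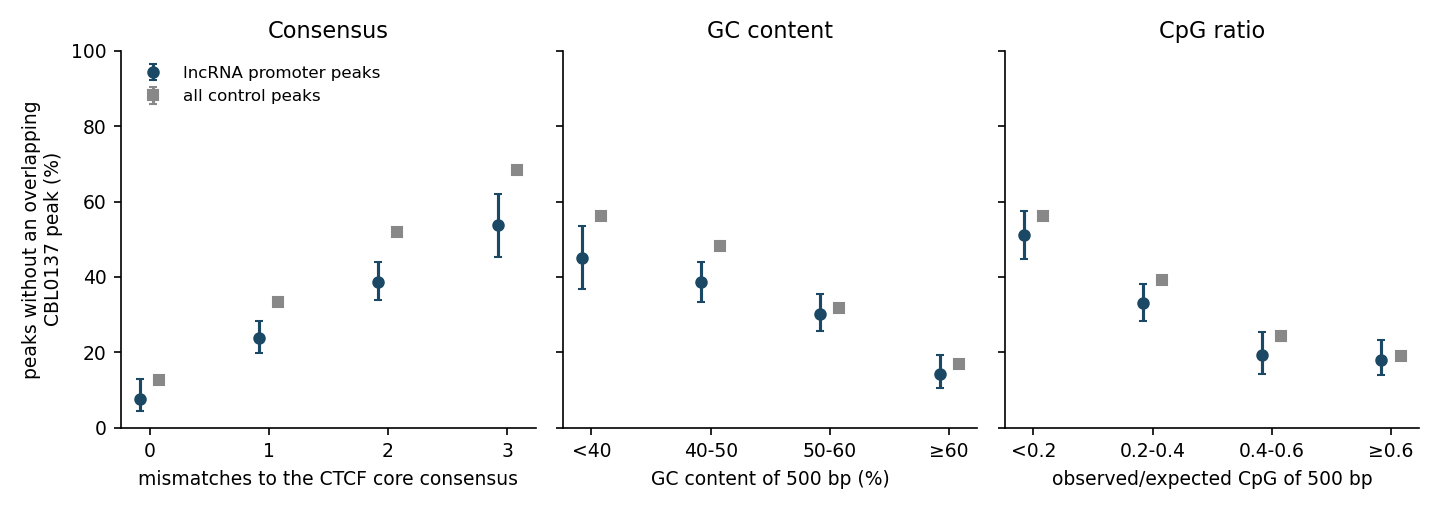
Percentage of peaks without an overlapping CBL0137 peak (y axis) by mismatches to the core consensus (left), GC content (middle) and observed to expected CpG ratio (right) of the window around the peak, for lncRNA promoter peaks (circles) and all control peaks (squares), with Wilson 95% intervals. With a CpG ratio under 0.2, 51.1% of the lncRNA promoter peaks were lost, and with a ratio of 0.6 or more, 18.1%.

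The consensus matches pointed along the lncRNA gene more often than against it. Of 538 matches, 310 were on the strand of the gene and 228 on the other, which is 57.6% (53.4 to 61.7) on the same strand, and at coding promoters the share was 56.9% (54.0 to 59.9). For the 221 matches of peaks within 250 bp of a start, 16 of 132 peaks with the match on the strand of the gene were lost (12.1%, 7.6 to 18.8) and 21 of 89 with the match on the other strand (23.6%, 16.0 to 33.4). Their intervals overlap, which does not settle whether the shares differ, and the difference was not tested. The shares at equal fold were 29.5% and 31.0%. Beyond 250 bp the lost shares were 20.8% and 20.9%.

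Position relative to the start went with the fate of a peak. Where the start lay under the peak 62 of 324 peaks were lost (19.1%, 15.2 to 23.8), and where it did not 258 of 712 (36.2%, 32.8 to 39.8). The first set was the stronger, with a median fold of 36.9 against 29.5, and the shares at equal fold were 28.4% and 41.4%. Width, which was larger for kept than for lost peaks, was not held equal here. The 250 bp upstream of the start had a lost share of 24.2% (19.5 to 29.6), and the 250 bp downstream 35.4% (28.4 to 43.2), with the consensus in 57.9% and 39.9% of the peaks. These sides differed in strength too, with median folds of 35.9 and 31.4 and shares at equal fold of 31.1% and 39.1%.

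The surroundings of the lncRNA genes were compared as well. Peaks 5 to 10 kb from a coding start were lost in 22.0% of 127 cases (15.7 to 30.0), and those 100 kb or more away in 38.6% of 280 (33.1 to 44.4). Their median GC content was 54.8% and 47.7%, and the shares at equal fold were 37.7% and 36.8%. No coding gene covered the lncRNA start for 637 of the peaks, and one on the other strand than the lncRNA covered it for 311. One on the same strand covered it for 76, and genes on both strands for 12. The lost shares were 28.9%, 32.8%, 39.5% (29.2 to 50.7) and 33.3% in this order. Strength differed as well, with median folds of 33.8, 31.1, 27.6 and 32.6 and shares at equal fold of 34.8%, 40.9%, 43.4% and 41.1%. By chromosome the share ran from 19.7% of 76 peaks on chromosome 1 (12.3 to 30.0) to 52.0% of 25 on chromosome 18 (33.5 to 70.0), so most chromosomes cannot be told apart at these numbers. By distance, 26.2% of the peaks within 100 bp of a start were lost (20.9 to 32.3) and 32.8% of those at 750 to 1000 bp (26.3 to 39.9). Beyond the limit of the choice, 41.3% of 566 peaks at 1 to 2 kb were lost (37.4 to 45.4) and 37.4% of 1582 at 2 to 5 kb (35.1 to 39.8). Right at the limit, 29.6% of 71 peaks at 900 to 1000 bp from a start were lost and 29.8% of 47 just beyond, at 1000 to 1100 bp. At the other limit, 3 of 21 peaks 5 to 6 kb from a coding start were lost and 10 of 34 peaks at 4 to 5 kb, which were not included.

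A comparison within the same region was made with the nearest distal peak. For 963 lncRNA promoter peaks such a neighbour lay within 100 kb, at a median of 23300 bp. The promoter peaks were lost in 31.2% of these pairs (28.3 to 34.1) and their neighbours in 37.8% (34.8 to 40.9). In 229 pairs only the neighbour was lost and in 165 only the promoter peak. In the 219 pairs whose control folds were within 1.2 times of each other, 53 promoter peaks (24.2%) and 66 neighbours (30.1%, 24.4 to 36.5) were lost. Only the neighbour was lost in 34 of them and only the promoter peak in 21. The intervals overlap but take no account of the pairing, and the paired difference was not tested.

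Where 2 peaks stood at the same lncRNA start, at a median of 787 bp from each other, they often parted. Of 42 such promoters, 15 kept both, 4 lost both and 23 lost 1. In 18 of these 23 the kept peak was the one of higher control fold, and at those promoters the median folds were 38.3 for the stronger peak and 14.5 for the weaker. The kept peak had fewer mismatches to the consensus in 14 of the 23, as many in 5 and more in 4. The start with 3 peaks belongs to a lncRNA gene near CYP11A1, which encodes the enzyme that begins steroid synthesis. Its peak at chr15:74665951-74666400 had a control fold of 54.1 and the one at chr15:74667351-74667900 a fold of 46.1, and both were kept. Between them, a peak of 100 bp at chr15:74666601-74666700 had a fold of 5.56. The middle peak counts as kept only because it lies in the 750 bp treated peak that also covers the first, so its percentile rank, higher by 67.7 points in the treated list, is that of a merged peak.

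Names of lncRNA genes say where many of them come from. Of the 1036 peaks, 693 were at genes known only by an identifier, 151 at intergenic genes with a LINC name, 111 at antisense genes, 17 at hosts of small RNAs, 9 at intronic and 5 at divergent genes, and 50 at others. The lost shares of the larger classes lay close to each other: 31.7% with an identifier only (28.4 to 35.3), 31.1% for LINC genes (24.3 to 38.9) and 28.8% for antisense genes (21.2 to 37.9). Of the peaks at divergent genes 3 of 5 were lost.

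Hosts of small RNAs are lncRNA genes whose transcripts are cut into microRNAs or small nucleolar RNAs. Of 109 such genes in the annotation 87 lay far enough from coding genes, and 16 of these had a peak, MIR9-1HG having 2. Of the 17 peaks 14 were kept and 3 lost (17.6%, 6.19 to 41.0), and all control peaks of equal fold enrichment were lost in 28.3% of cases. The median control fold of the 17 peaks was 39.9. Because each list was normalized on its own, the control and treated folds below are not on one scale. Changes are described by the percentile rank within each list.

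Each of the 5 hosts of small nucleolar RNAs with a peak kept it. The peak over the start of SNHG26 had a control fold of 49.2 (rank 90.7) and a treated fold of 61.7 (rank 96.3). At SNHG7 the folds were 48.4 and 62.0, ranks 89.9 and 96.4. SNHG17 and SNHG11, neighbours on chromosome 20, had control folds of 48.2 and 53.8 and treated folds of 49.8 and 50.6. SNHG16 had a weak peak in both lists, with a fold of 17.1 in control cells and 18.5 after the drug. Their ranks moved by between -5.23 and 8.13 points.

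Among hosts of microRNAs the peaks behaved in different ways. MIR3663HG stayed among the strongest, with folds of 56.9 (rank 95.9) and 64.2 (rank 97.2). MIR194-2HG, which carries microRNAs of liver and gut, had folds of 43.3 and 46.1, and MIR1-1HG, the host of a muscle microRNA, had 30.4 and 29.1. The peak of MIR1915HG stood 60.9 points higher in rank after the drug, with folds of 18.0 and 44.0. Both peaks of MIR9-1HG, host of a microRNA of the nervous system, stood lower in rank, going from folds of 42.1 and 39.9 to folds of 29.9 and 23.7. The peak of MIR202HG likewise went from 38.9 to 22.3, a change of -39.5 points. MIR4300HG had a full consensus match, shown above. Its control fold was 29.8 (rank 53.1), and its treated peak, 150 bp wide, had a fold of 9.61 (rank 3.96). No treated peak was called at MIR193BHG, whose control peak had a fold of 46.5, at MIR4432HG, with 34.6, or at MIR31HG, with 13.5.

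**Figure D4:**
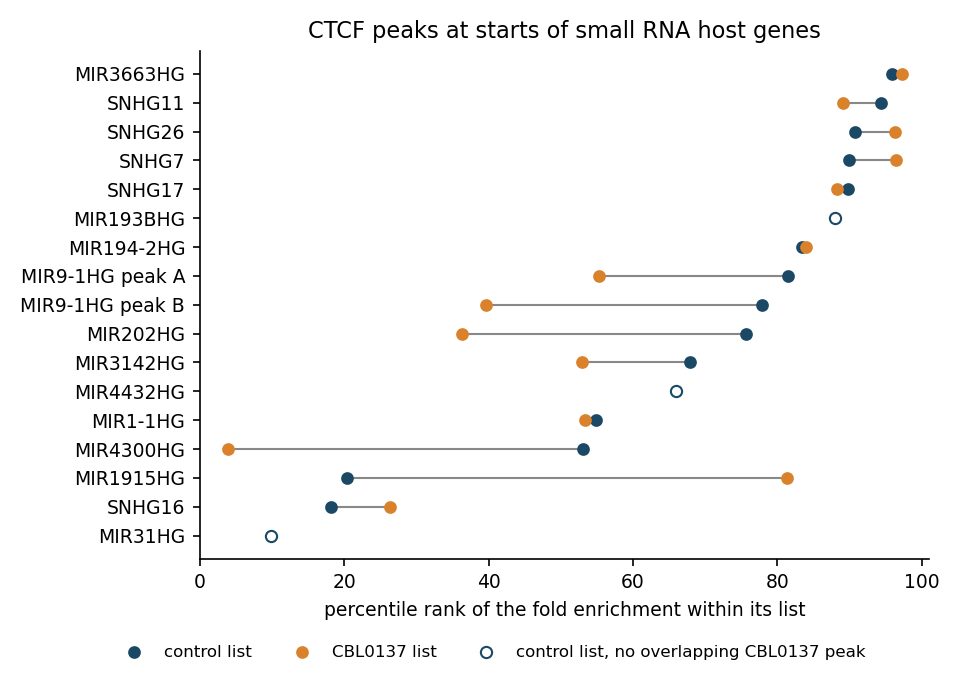
Percentile rank of fold enrichment within its own list (x axis) for the 17 CTCF peaks at starts of 16 small RNA host genes (y axis, sorted by control rank), with control and CBL0137 ranks joined by a line and open circles for the 3 peaks with no overlapping CBL0137 peak. MIR1915HG moved furthest up and MIR4300HG furthest down among the kept peaks.

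Of all 18702 lncRNA genes, at any distance from coding genes, 992 (5.3%) had a peak that met the rule. The lists of widely studied genes below are short beside that number. Their counts are over genes far enough from coding genes only, so they cannot be set against the 5.3%. Of 12 genes of imprinted domains that lay far enough from coding genes, PEG13 had such a peak, at 399 bp upstream of its start. PEG13 is expressed from the paternal copy and lies within TRAPPC9, and its narrow peak of 100 bp had a control fold of 14.6 and was lost. Of 10 genes known from nuclear architecture or X inactivation, 2 had a peak. The peak at FIRRE, an X-linked gene whose RNA helps to place the inactive X chromosome in the nucleus, covered the start, at chrX:130964851-130965150. It had a control fold of 23.2 (rank 34.4) and was lost. The peak at MIAT, a nuclear lncRNA first linked to heart infarction, lay upstream of its start. It was kept, with folds of 41.0 in control cells and 32.1 after the drug.

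Of 9 developmental genes far enough from coding starts, 2 had a peak. GATA3-AS1 starts within a coding gene on the other strand, and its nearest coding start is that of the T-cell factor GATA3. The peak over its start was kept, with a control fold of 47.2 (rank 88.7) and a treated fold of 24.7 (rank 42.3). That of HOXA10-AS, within the HOXA cluster of body plan genes, was 100 bp wide with a control fold of 11.7, and it was lost. Of 20 genes linked to cancer or to p53, 2 had a peak, MIAT again and CCAT2, a transcript of a colon cancer risk region, which was kept with folds of 25.7 and 27.0. Over these 4 lists, of which MIAT stands on a pair, 3 of the 6 different peaks were lost, the weakest ones of the 6, and the lists are too short to be set against 42.9%.

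The strongest peaks of all 1036 were kept, and 3 of the 5 were at genes without a name. The highest fold, 90.2, was at chr16:75551301-75551650 (treated fold 52.7), followed by 84.0 at chr22:36461951-36462550 (treated fold 74.0) and 78.4 at chr1:235267501-235267850 (treated fold 39.6). LINC03051, with the start under its peak, had folds of 78.4 and 46.9, and LINC01569 had folds of 77.3 and 53.2. Their ranks in the treated list were between 74.3 and 99.0.

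Some strong peaks were nevertheless lost. The strongest had a control fold of 63.3 and a rank of 98.1, and lay upstream of a lncRNA start, at chr8:129334901-129335250. Others had folds of 52.0 at chr17:11784101-11784350, the full consensus match shown above, 51.7 at chr7:151433651-151433950 and 51.5 at chr14:89479351-89479650. The matches at the last 2 had 3 mismatches.

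Weak peaks were kept in 11 of 82 cases in the lowest of the 10 groups of fold enrichment. Over all control peaks of that group 558 of 4747 were kept. The lost shares were 86.6% (77.6 to 92.3) and 88.2%, so keeping weak peaks was not particular to lncRNA promoters. The weakest of all kept peaks, at chr17:41466051-41466250, had a fold of 3.82 in control cells and 3.31 after the drug, at the bottom of both lists. LINC00472 went from a fold of 9.15 (rank 1.91) to 22.9 (rank 37.8). ARHGAP31-AS1, whose start and full consensus match are shown above, went from a fold of 11.4 (rank 5.63) to 30.7 (rank 57.0). At chr5:157117501-157117600 a peak of 100 bp with a fold of 10.4 was covered by a treated peak of 300 bp with a fold of 43.8, the largest upward difference in rank, 77.3 points.

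Among the 716 kept peaks 313 stood at a higher rank in the treated list than in the control list (43.7%), where 35.2% of all kept control peaks did. The median change was -4.22 points for the lncRNA promoter peaks and -9.21 for all kept peaks. For the 471 kept peaks centred within 500 bp of a start it was -2.02, with a 95% interval of the median of -5.04 to 0.535, which includes 0. A median below 0 over all kept peaks follows from the make-up of the lists, since 88.2% of the weakest group of control peaks had no counterpart and the kept ones therefore start from the higher control ranks. At coding promoters the median was -3.24 and at distal peaks -10.6. With at least 60% GC the median change of the lncRNA promoter peaks was 0.687, and with less than 40% it was -19.2, and over all kept control peaks of these GC contents it was -1.83 and -15.0. The treated peak was narrower than the control peak in 408 of 716 cases (57.0%), equally wide in 172 and wider in 136, where 62.4% of all kept control peaks were narrower.

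**Figure D5:**
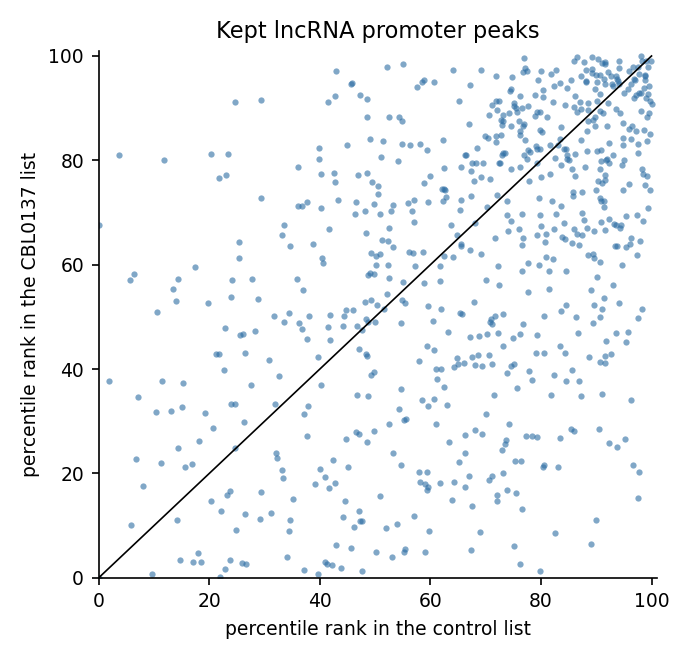
Percentile rank of fold enrichment in the control list (x axis) and in the CBL0137 list (y axis) for each of the 716 kept lncRNA promoter peaks, with the line of equal rank. Of the points, 313 lie above the line and 403 below it.

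The 3 largest downward differences in rank, which can start only from high control ranks, were as follows. At chr15:85874351-85874700 the fold was 47.5 in the control list (rank 89.0) and 10.9 in the treated list (rank 6.4). CFLAR-AS1, antisense to the gene of an inhibitor of caspase-8, had folds of 61.6 and 14.5, a change of -82.3 points. DNPEP-AS1 had folds of 48.4 and 12.7, a change of -78.9 points. Upwards, a difference of 68.3 points, second to the 77.3 points given above, was seen at chr3:55643501-55643800, with folds of 14.4 and 43.2.

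The widest peaks also changed in shape. MIR3142HG, host of the inflammation-linked miR-146a, and LINC02716 each had a control peak of 1200 bp, which was overlapped by treated peaks of 550 and 350 bp. At ELDR, a transcript near the growth factor receptor gene EGFR, the control peak of 1100 bp and the treated peak of 1200 bp nearly coincided, with folds of 48.1 and 32.7.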

How the data were processed

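CTCF ChIP-seq of HT1080 cells was analysed from 2 deposited peak lists, 1 of control cells (47470 peaks) and 1 of CBL0137-treated cells (29558 peaks). Per the paper's methods, the authors mapped reads to hg19, removed ambiguous and duplicate reads and called peaks with PePr from both replicates of ChIP and input together; the submitters' processing notes name Bowtie2 2.2.3, SAMtools 1.5 and deepTools 2.0. The labels give paired-end reads and the methods single-end reads. In each deposited list the authors give a fold enrichment, which is a ratio of ChIP to input, and a p-value and an FDR. No p-value was above 9.999e-06 in either list. The other 2 deposited lists hold the authors' own comparison of the conditions (fold and p-value) and were not used.

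Gene starts were those of GENCODE v44 lifted to hg19, and no peak lay beyond a chromosome end of that build; 26 control peaks on other contigs gave no sequence. The 12-letter core of the CTCF consensus was sought in the 400 bp around each centre, allowing 1 mismatch, and GC content was that of 500 bp. Shares at equal fold or GC content were averaged over 10 groups formed over all control peaks. Percentile ranks were computed within each list, and no fold was divided by one of the other list. Named peaks were all those at genes of 5 lists (imprinted domains, nuclear architecture and X, developmental, cancer and p53, small RNA hosts), the 5 strongest, the 5 strongest lost, the 5 weakest kept, the 3 largest upward and 3 largest downward differences in rank, the 3 widest, and genes with 3 or more peaks. Genes with only an identifier are given by position. 1 item that the rule names is not reported here. The members, lists and rule were chosen with earlier results of these data known. Sequences were read with samtools 1.23.1 and pysam 0.24.0 and figures drawn with matplotlib 3.10.9; the other steps ran in Python 3.11.15 (pandas 2.3.3, numpy 2.4.6, scipy 1.17.1), and the routines were tested on simulated data. Other cutoffs, distances, overlap rules, gene sets and mismatch limits were tried, and the closing section gives their effect.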

Additional observations from a re-analysis of the deposited data

How the results depend on the processing

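No paired analysis was possible because each list pools the replicates of a condition, and for the same reason no replicate could be left out. Of 69 values from other settings, 53 stayed within the 95% interval of the reported value and 16 moved beyond it. Only the change of rank could take either sign, and it stayed negative in each of its settings. The lost share of 30.9% was 34.6% with centres within 2 kb of a start, 34.9% with at least 50% of the control peak covered, 37.8% when the overlap had to exceed 50% of the larger peak, and 17.1% when the control list was shortened from its weak end to the length of the treated list. The share at equal fold was 41.6%, 45.0% and 22.8% under the last 3 of these. It was 33.4% at equal fold and GC content together, a setting chosen after seeing the data, as was equal GC content alone. With FDR at most 1e-05 in both lists, 67.2% of the peaks remained by the stricter rule, the median control fold was 36.5 and 58.1% held the consensus. Within 2 kb, 58.3% remained and the median fold was 31.2. The consensus was present in 48.1% of peaks at genes with a symbol, in 15.1% with 0 mismatches and in 86.3% with 2. In all 18 settings, the reported one included, the lost share was below that of all control peaks at the equal property, by 2.54 to 8.13 points. The depth per peak is unknown, 1 cell line and 1 time were studied, and a peak that fell below the calling threshold cannot be told apart from one without CTCF.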

Other observations

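Peaks called only after CBL0137 made up a similar share at lncRNA promoters and over all treated peaks. Of 790 treated peaks that met the same rule of position, 73 (9.24%, 7.41 to 11.5) overlapped no control peak. Over all treated peaks the share was 8.07%, which is inside this interval. The median fold of the 73 peaks was 19.7, against 32.5 for all 790. The strongest, with a fold of 61.1 and a rank of 96.0, lay at chr12:128675151-128675500 at a gene without a name. MIR17HG, the host of an oncogenic cluster of microRNAs, had such a peak with a fold of 39.5, TBX2-AS1, antisense to a gene of a T-box factor, one with 32.1, and COL4A2-AS1 one with 31.5. These genes were picked after their values were seen.

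Most widely studied lncRNA genes had their nearest control peak outside the 1 kb limit. H19, an imprinted gene whose control region is a classic site of CTCF binding, had it 2.36 kb from the start, with a fold of 46.4 in the control list and 18.9 in the treated list. For KCNQ1OT1 the distance was 7.48 kb (folds 28.2 and 19.1), and for MEG8 it was 6.29 kb, with a control fold of 48.0 and no overlapping treated peak. NEAT1 and MALAT1, neighbours whose RNAs stay in the nucleus, had their nearest peaks at 6.24 kb and 13.3 kb, kept with treated folds of 42.2 and 33.3. A further 8 genes of the lists had a peak within 1 kb that was not included because a coding start lay too close. The peaks at MESTIT1, WT1-AS, HOXA-AS3, HOXC-AS3 and NR2F2-AS1 were kept, and those at FOXC2-AS1, GATA6-AS1 and CRNDE had no overlapping treated peak.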
